A study of Arabidopsis thaliana with 111 samples.

Results

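The genes described here are the 100 of 21313 measured loci with the most opposite late courses in the endosperm and the radicle of germinating Arabidopsis thaliana seeds. Each locus was scored from 4 group means on the log2 scale. The first difference was the level in micropylar plus chalazal endosperm (MCE) at 38 h in seeds with a ruptured endosperm, less the level in MCE at 12 h. The second was the level in radicle and embryonic axis (RAD) at 12 h, less the level in RAD at 38 h in seeds with a ruptured endosperm. The score was the smaller of these differences, and the 100 loci with the highest score were taken, so a rise in MCE and a fall in RAD between those groups are what the genes were chosen for and are not results. Of the members, 63 have a gene symbol in the reference table and 37 go by their locus name.

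The study followed seeds of Columbia-0 plants from dryness to radicle emergence, with arrays in 28 groups. All seeds were imbibed in continuous light on water agarose, and the labels name no mutant and no chemical treatment. Groups used here are whole dry seed, MCE and RAD at 1, 3, 7, 12, 16, 20 and 31 h after sowing, MCE and RAD at 25 h without and with testa rupture and at 38 h without and with endosperm rupture, the remaining endosperm (PE) at 3 and 16 h, and cotyledons (COT) at 3, 16 and 31 h. Each group had 4 arrays, except PE at 3 h with 3. Nothing in the labels says whether replicates are separate batches of seed, and p-values then cover only the spread of these samples, which may be technical.

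The endosperm of a mature Arabidopsis seed is a living cell layer around the embryo. It weakens over the radicle tip, is pierced when the radicle emerges, and is consumed as its reserves are moved to the embryo. The radicle over the same hours passes from imbibition to cell elongation. Phosphate is stored in seeds as phytate, and zinc, iron and other metals are stored with it. Nutrient release, metal transport and breakdown of chlorophyll are processes that dying or emptied plant tissues are known to share.

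The values that chose the members ran over a wide range. The rise in MCE had a median of 1.66 and lay between 1.06 and 5.49, and the fall in RAD had a median of 1.49 and lay between 1.07 and 5.40. The score was set by the rise in MCE for 39 members and by the fall in RAD for 61. The highest scores were those of AT5G01210 (3.70), the purple acid phosphatase PAP17 (3.32), the aldo-keto reductase AKR4C8 (3.15), AT5G20790 (3.11), AT5G45650 (2.78), the zinc transporter ZIP4 (2.74) and the glycerol-3-phosphate permease G3Pp1 (2.68). At the lower edge, WRKY2, the formin FH8, Phox4 and AT1G60970 scored 1.07, 1.07, 1.07 and 1.06. Just outside were PPH (1.06), the pheophytinase of chlorophyll breakdown, ZIF1 (1.05), a zinc transporter of the vacuole membrane, and AT2G34460 (1.05), so the edge of the set is not a gap. In RAD at 38 h with endosperm rupture, 17 members had a mean below 4.03, the level under which the dimmest 25% of loci peaked, and for these the fall can be understated.

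**Figure D1:**
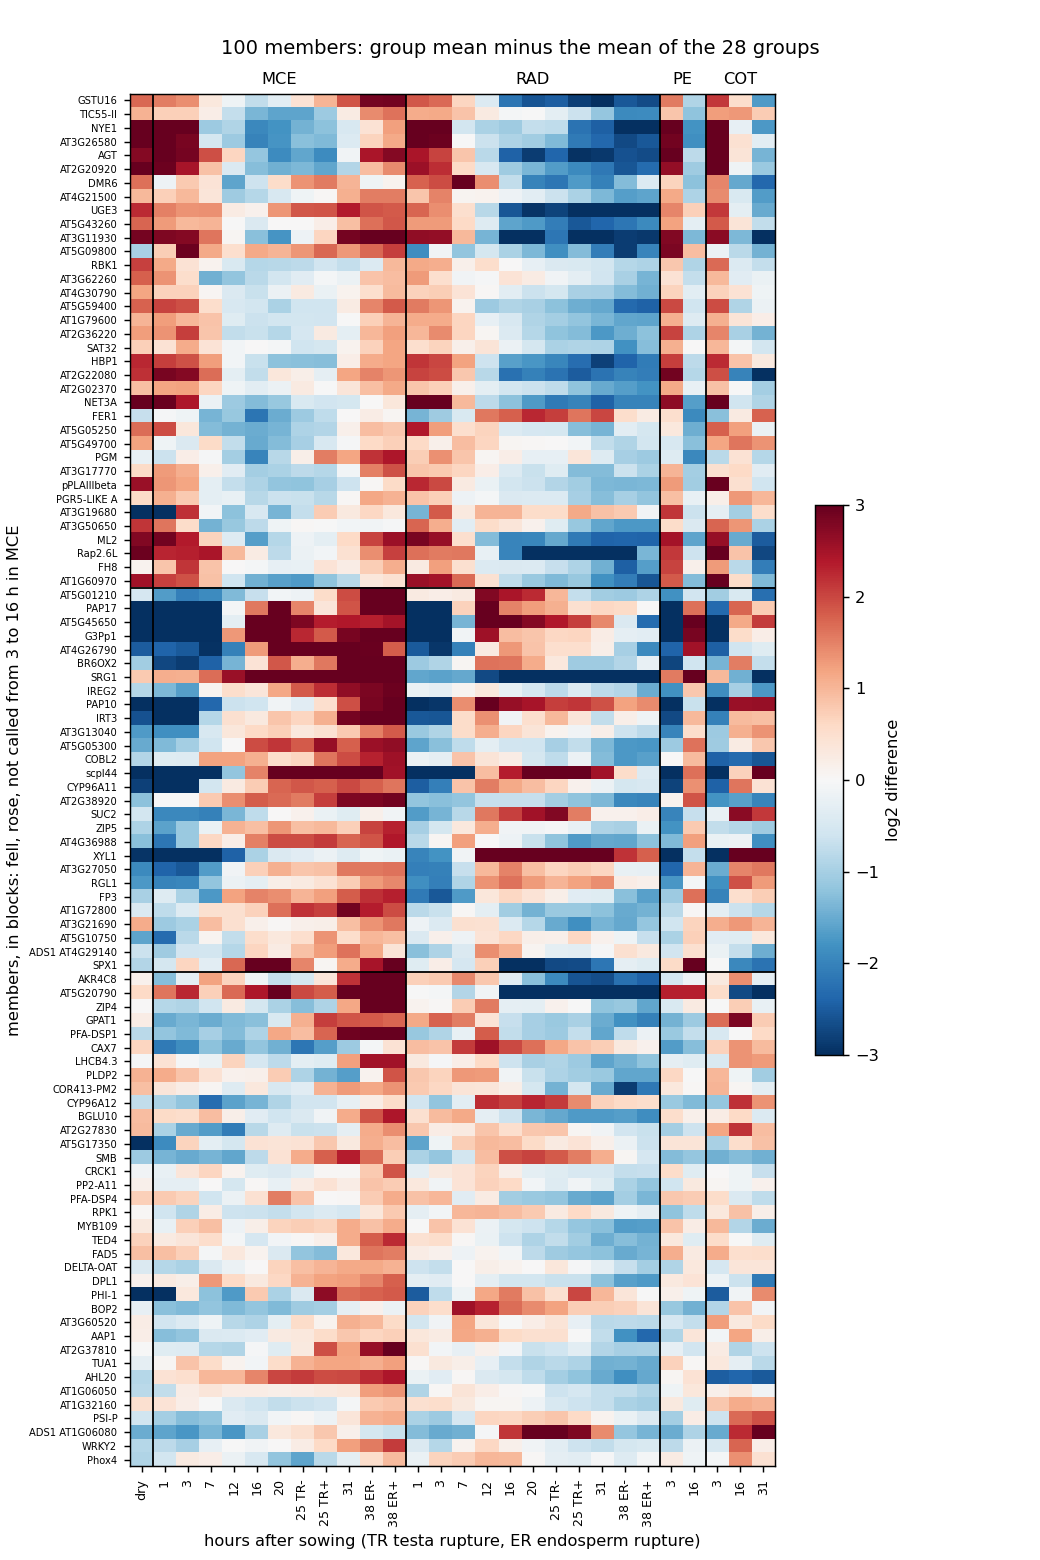
Group means of the 100 members in log2 units minus each gene's mean over the 28 groups, with 1 row per gene and 1 column per group (differences beyond 3 take the end colours). Rows are in 3 blocks by their change in MCE from 3 to 16 h (36 fell, 28 rose, 36 were not called), and in MCE and RAD the late columns have opposite colours in most rows.

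Array medians lay between 4.67 and 5.22, and the highest array value was 14.62. At 12, 16, 31 and 38 h the summed level of the 5 measured endosperm markers (log2 of the sum) was between 14.0 and 15.1 on the MCE arrays and between 6.88 and 8.28 on the RAD arrays. The 5 were not alike. At 31 h EPR1 (12.70), EXPA2 (14.21) and DELTA-VPE (10.16) were high in MCE, against 3.71, 4.39 and 3.10 in RAD. MAN6 stood at 3.87 in MCE and 3.95 in RAD. MAN7 stood at 11.44, 9.35 and 6.87 in MCE at 16, 31 and 38 h without endosperm rupture. In RAD it stood at 6.87, 7.53 and 7.31. All 7 measured root markers were above the level of 4.03 in RAD, against 3 or 4 of them in MCE. The 5 measured cotyledon and shoot markers (STM, CUC2, ATML1 and the light-harvesting genes LHCB4.2 and LHCA1), did not move as one list. From 16 to 31 h LHCA1 and LHCB4.2 were called higher in MCE and none of the 5 was called in RAD. Their summed level was 8.66 in MCE at 16 h, 9.63 at 31 h and 10.55 at 38 h without endosperm rupture, and 10.37, 10.01 and 9.32 in RAD. The 5 seed coat markers, of which 2 were above 4.03, had summed levels of 7.04 and 8.04 in RAD and 7.04 and 7.80 in MCE at 16 and 31 h. The higher sums came with MUM4, at 6.26 and 7.70 in RAD and 6.18 and 7.40 in MCE. TT12 stood at 4.77 and 4.87 in RAD and 4.75 and 4.70 in MCE. TT10, BAN and TT16 lay below 4.03. The part of these shifts in the results was not tested. In bulk samples such as these, fewer cells of a type and less RNA per cell cannot be told apart.

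Between 16 and 31 h, in groups that the choice of members did not use, more members rose in MCE than fell there, and more fell in RAD than rose. The interval, like that from 31 to 38 h, lies within the span from 12 to 38 h for which the members were chosen. An excess of rises in MCE and of falls in RAD can thus follow from the choice, as can an excess in their difference. A change counted as called where limma gave an adjusted p (Benjamini-Hochberg over all loci) under 0.05 with a log2 difference of 1 or more in size. In MCE, 43 members were called higher at 31 h, where 10.6% of all loci were, and 2 were called lower, where 11.7% of all loci were. In RAD, 33 members were called lower (4.34% of all loci) and 1 higher (7.16% of all loci). The median difference over the members was 0.92 in MCE and -0.85 in RAD, against -0.05 and -0.06 over all loci. With no fold minimum, 69 members were called higher in MCE and 88 lower in RAD. On signs alone, 89 members were above 0 in MCE and below 0 in RAD, as were 18.15% of all loci.

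The difference between these changes was itself tested. The change in MCE exceeded the change in RAD for 85 members, against 8.88% of all loci, with a median difference of 1.78. It was below it for 1 member, SPX1, against 10.2% of all loci. The largest difference was that of AT5G01210 (6.15 ± 0.31, SE; adjusted p = 1.9e-32). Next came BR6OX2, which makes brassinosteroids (5.45 ± 0.29; adjusted p = 2.1e-30), AT3G11930 (5.42 ± 0.33) and PFA-DSP1, a dual-specificity phosphatase (4.62 ± 0.23). Only 15 members were called higher in MCE and also lower in RAD over this interval, so for most the call of the difference rests on a called change in 1 tissue or in neither.

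**Figure D2:**
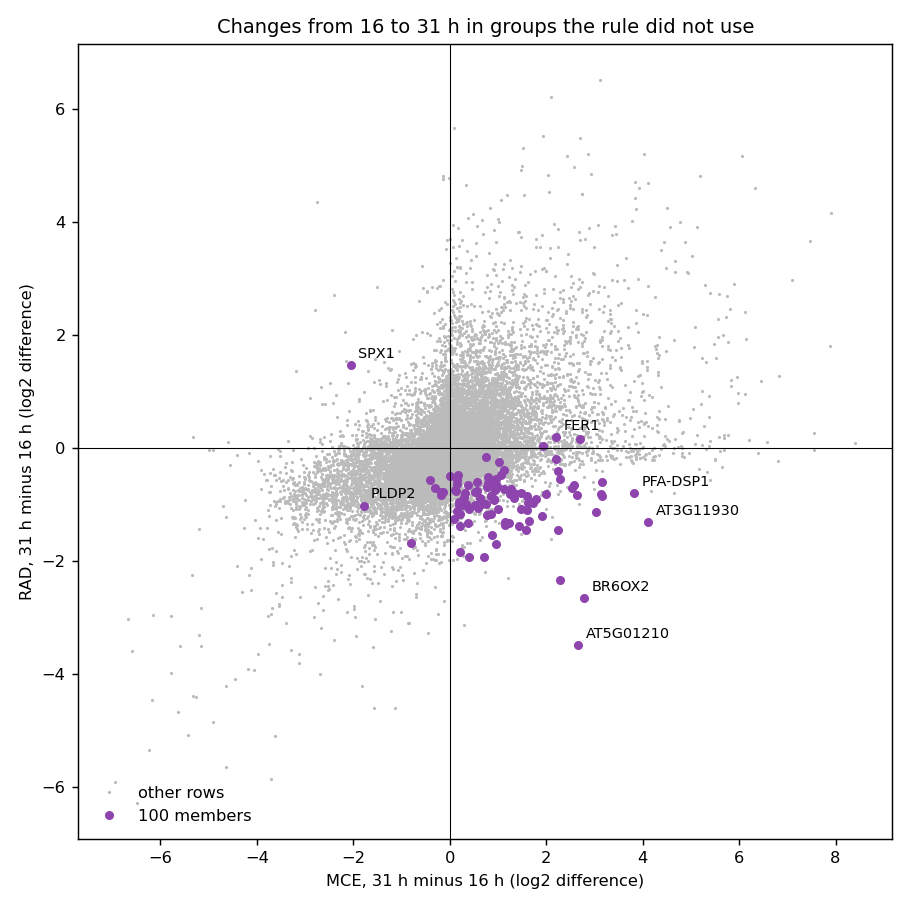
Change from 16 to 31 h in MCE (x axis, log2 difference) against the change in RAD (y axis, log2 difference), with 1 point per locus, the 100 members in purple and all other loci in grey. Most members lie at the lower right, and SPX1 lies alone among them at the upper left.

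At 31 h, 71 members were higher in MCE than in RAD (14.2% of all loci) and 5 were lower (16.2% of all loci). As members were chosen for a rise in MCE and a fall in RAD by 38 h, this excess can follow from the choice. The widest gap was that of SRG1, a 2-oxoglutarate-dependent dioxygenase named for senescence, at 9.58 ± 0.16 (adjusted p = 2.3e-71). AT5G20790 followed with 7.52 ± 0.22, AT3G11930 with 7.38 ± 0.24 and the UDP-glucose epimerase UGE3 with 6.39 ± 0.15. The 5 that were lower in MCE were XYL1, an alpha-xylosidase of the cell wall (-3.37 ± 0.28), the iron store ferritin FER1 (-1.98 ± 0.18), the cation exchanger CAX7 (-1.83 ± 0.20) and the fatty acid desaturase ADS1 of locus AT1G06080 (-1.26 ± 0.20), besides BOP2. Some of these genes changed further after 31 h. At 38 h with endosperm rupture, in groups that chose the members, CAX7 (7.42 in MCE, 7.11 in RAD) and this ADS1 (4.47 and 3.74) were higher in MCE. XYL1 (6.73 in MCE, 8.73 in RAD), BOP2 (5.42 and 5.98) and FER1 (8.72 and 8.90) were still lower there.

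**Figure D3:**
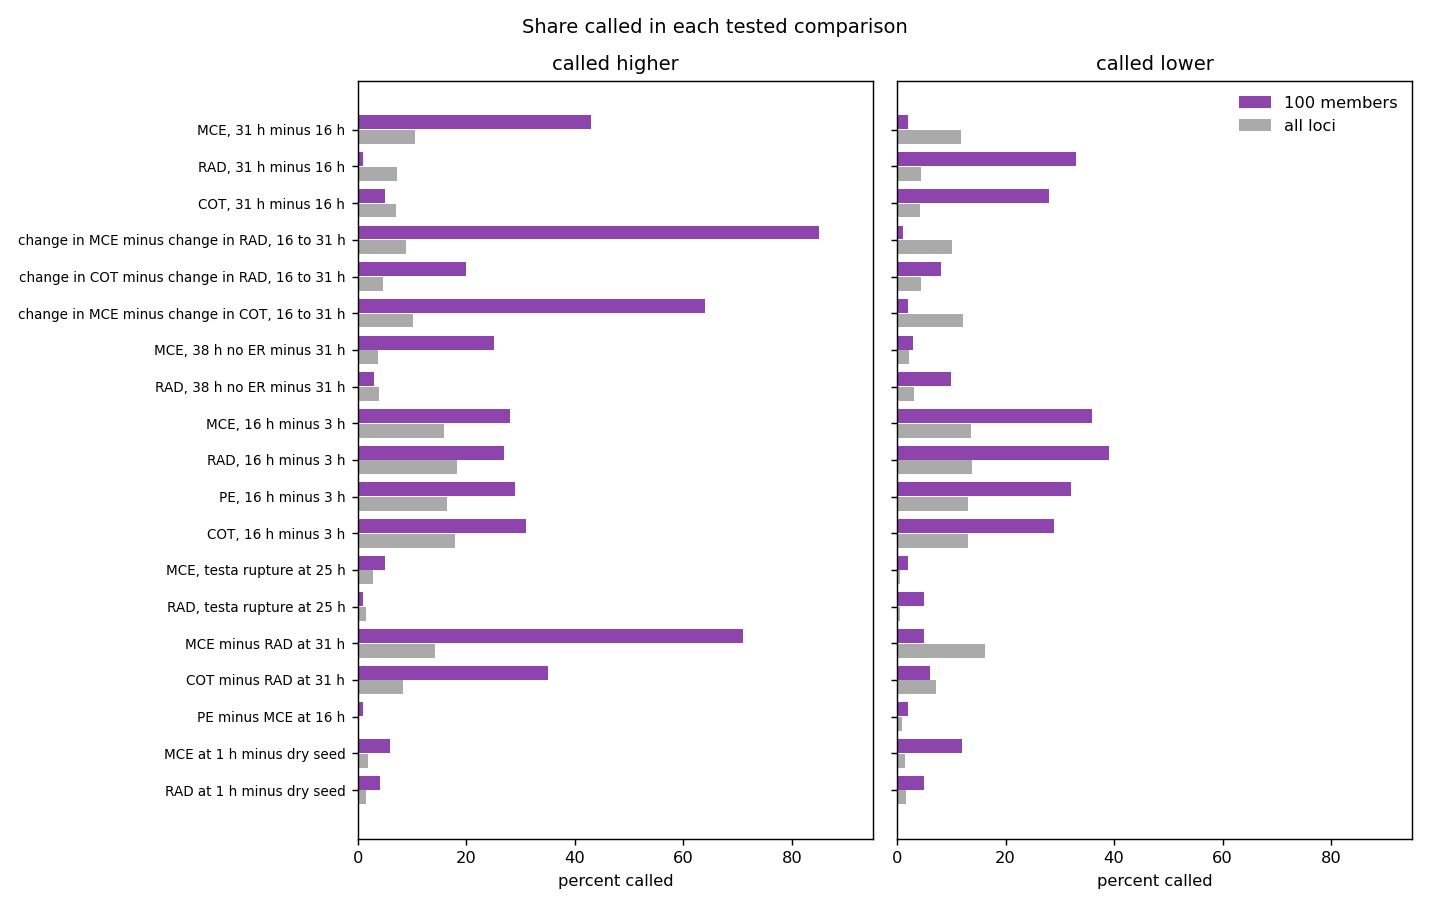
Percent of the 100 members (purple) and of all 21313 loci (grey) called higher (left) or lower (right) in each of the 19 tested comparisons. The widest gap is for the difference between the MCE and RAD changes from 16 to 31 h, with 85 members against 8.88% of all loci.

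Members were grouped by known role, and these roles, like the genes named outside the naming rule, were chosen after values had been seen, so the groups are described by counts alone. In the whole set 43 members were called higher in MCE, 33 lower in RAD and 28 lower in COT from 16 to 31 h. For 85 of the 100 the change in MCE exceeded that in RAD. The shares over all loci were 10.6%, 4.34%, 4.23% and 8.88%. A group's share near that of the set is no trait of its role. Among the members, 5 belong to the phosphate starvation response. In that response plants secrete acid phosphatases, replace membrane phospholipids and hold back the response through SPX proteins that sense inositol pyrophosphates. Of these 5, 1 was called higher and 2 lower in MCE from 16 to 31 h, which made this the only group with called falls in MCE.

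PAP10, a purple acid phosphatase of the root surface, rose in MCE to the level of RAD. In MCE its arrays gave 7.93, 8.14, 7.35 and 7.54 at 16 h and 10.41, 10.72, 10.03 and 9.93 at 31 h. In RAD they gave 10.88, 11.12, 10.83 and 11.02 at 16 h and 10.52, 10.10, 10.06 and 10.33 at 31 h. The groups did not overlap in either tissue, and at 31 h the means were 10.27 ± 0.37 in MCE and 10.25 ± 0.21 in RAD (SD, n = 4). The increase in MCE was 2.53 ± 0.24 (SE; adjusted p = 1.9e-16), the difference in RAD was -0.71 ± 0.24 (adjusted p = 0.012, under the fold minimum), and the test of the difference gave 3.24 ± 0.34 (adjusted p = 5.5e-14). In COT the PAP10 level did not pass the test, at 10.94 and 10.96 at 16 and 31 h, a difference of 0.02 ± 0.24.

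PAP17, another purple acid phosphatase, rose in MCE after 31 h. Its MCE arrays gave 10.98, 10.83, 9.81 and 9.51 at 16 h, 10.41, 11.17, 10.38 and 10.36 at 31 h, and 11.75, 11.98, 11.83 and 11.79 at 38 h without endosperm rupture. The groups at 16 and 31 h overlapped, and the arrays at 38 h lay above both. The increase from 31 to 38 h was 1.25 ± 0.30 (adjusted p = 0.00051), while from 16 to 31 h the difference was 0.30 ± 0.30. The change of PAP17 in MCE less that in RAD from 16 to 31 h was 1.16 ± 0.43 (adjusted p = 0.022), and it lost its call without MCE at 31 h replicate 2 (0.96, adjusted p = 0.078) and without MCE at 16 h replicate 3 (1.00, adjusted p = 0.066) or 4 (0.90, adjusted p = 0.098).

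G3Pp1, which carries glycerol-3-phosphate and is induced by low phosphate, was near the dim end in dry seed (3.55, 4.01, 4.12 and 3.29) and had reached 11.40, 11.42, 10.59 and 10.38 in MCE at 16 h. Its difference from 16 to 31 h was -0.32 ± 0.35 in MCE and -0.70 ± 0.35 in RAD, and neither passed. At 31 h G3Pp1 was higher in MCE than in RAD by 2.63 ± 0.35 (adjusted p = 1.1e-10).

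SPX1, an inhibitor of the phosphate starvation regulators, ran against the rest of the set between 16 and 31 h. In MCE its arrays gave 11.50, 11.74, 10.90 and 10.77 at 16 h, 8.18, 9.60, 9.14 and 9.79 at 31 h, and 10.16, 10.79, 10.67 and 10.49 at 38 h without endosperm rupture. The 31 h arrays lay below both of the other groups. In RAD they gave 4.44, 4.54, 4.80 and 3.97 at 16 h, 5.73, 6.11, 6.03 and 5.76 at 31 h, and 7.08, 8.34, 7.72 and 8.03 at 38 h, each group above the one before. SPX1 decreased in MCE from 16 to 31 h (-2.05 ± 0.28, adjusted p = 3e-10) and then increased (1.35 ± 0.28, adjusted p = 4.3e-05). In RAD it increased by 1.47 ± 0.28 (adjusted p = 4.1e-06) and 1.88 ± 0.28 (adjusted p = 1.4e-08).

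PLDP2, a phospholipase D that takes part in the replacement of phospholipids under low phosphate, also dipped in MCE. Its arrays in MCE gave 5.39, 5.69, 4.73 and 5.02 at 16 h, 3.47, 3.53, 3.31 and 3.37 at 31 h, and 4.48, 5.66, 5.07 and 5.49 at 38 h without endosperm rupture. The arrays at 31 h were below the level of 4.03 and below all others. The decrease of PLDP2 was -1.78 ± 0.19 (adjusted p = 3.6e-14) and the later increase 1.75 ± 0.19 (adjusted p = 6.7e-13). Its decrease in RAD from 16 to 31 h (-1.02 ± 0.19, adjusted p = 3.9e-06) lay at the fold minimum and lost its call without RAD at 31 h replicate 1 (-0.96) or 2 (-0.97) and without RAD at 16 h replicate 3 (-0.84).

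PFA-DSP1 and PFA-DSP4 belong to a family of phosphatases that act on inositol pyrophosphates. PFA-DSP1 had a mean of 4.53 ± 0.14 (SD, n = 4) in MCE at 16 h and 8.36 ± 0.28 at 31 h, an increase of 3.83 ± 0.16 (SE; adjusted p = 2.9e-38). In RAD it stood at 4.70 ± 0.21 and 3.90 ± 0.22. PFA-DSP4 stood at 7.21 ± 0.46 and 6.80 ± 0.10 in MCE at the same times, a difference of -0.41 under the fold minimum, and the change in MCE less that in RAD did not pass (0.15, adjusted p = 0.63). Among 20 measured phosphate starvation genes outside the set, from a list written after values were seen, 4 were called higher and 5 lower in MCE from 16 to 31 h. PHO1, which loads phosphate into the xylem, was 1 of the 4 (2.20 ± 0.17, adjusted p = 5.3e-21).

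Of 7 members that move or store metals, 4 rose in MCE from 16 to 31 h, none was called lower there, and for 6 the change in MCE exceeded that in RAD. A zinc and iron list, written after values were seen, held 27 measured genes outside the set. Of these, 5 were called higher and 2 lower in MCE from 16 to 31 h, with a median of 0.04. Their change in MCE exceeded that in RAD for 7 and was below it for 3, with a median of 0.10. ZIP4, a zinc transporter of the plasma membrane induced by zinc shortage, gave 6.38, 6.66, 6.55 and 6.67 in MCE at 16 h, 8.14, 8.84, 7.95 and 8.03 at 31 h, and 10.45, 10.32, 10.33 and 10.05 at 38 h without endosperm rupture. Each group lay above the one before without overlap. In RAD it gave 6.78, 6.81, 7.05 and 6.69 at 16 h and 5.90, 5.69, 6.17 and 5.76 at 31 h. The MCE increases of ZIP4 were 1.68 ± 0.17 (adjusted p = 5.4e-15) and 2.05 ± 0.17 (adjusted p = 3.5e-18), and its difference in RAD, -0.95 ± 0.17, was under the fold minimum.

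IRT3, an iron and zinc transporter of the same family, gave 8.98, 8.79, 8.62 and 8.47 in MCE at 16 h and 11.28, 11.63, 11.05 and 11.23 at 31 h, with no overlap. The increase was 2.58 ± 0.18 (adjusted p = 1.5e-24), and the change of IRT3 in MCE exceeded that in RAD by 3.23 ± 0.25 (adjusted p = 1.2e-20). ZIP5, of the same family too, rose in MCE only later, from 6.91 ± 0.26 at 31 h to 8.21 ± 0.22 at 38 h without endosperm rupture (1.30 ± 0.18, adjusted p = 1.6e-09). IREG2, which takes metals into the vacuole, rose in MCE by 2.28 ± 0.16 from 16 to 31 h (adjusted p = 6.3e-23). IRT3 is followed on chromosome 1 by another member, AT1G60970, in the RefSeq order of genes (TAIR10.1).

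FER1, a plastid ferritin that stores iron, rose in MCE and in COT before it fell in RAD. Its MCE arrays gave 6.42, 6.50, 6.18 and 6.74 at 16 h and 8.52, 8.92, 8.60 and 8.64 at 31 h. Its RAD arrays gave 10.31, 10.54, 10.37 and 10.59 at 16 h, 10.40, 10.87, 10.66 and 10.68 at 31 h, and 8.72, 9.15, 9.31 and 9.58 at 38 h without endosperm rupture. The RAD arrays of the first 2 of these times overlapped and those at 38 h lay below. FER1 increased in MCE by 2.21 ± 0.18 from 16 to 31 h (adjusted p = 7.5e-20) and in COT by 1.51 ± 0.18 (adjusted p = 9.1e-12), and decreased in RAD only after 31 h (-1.46 ± 0.18, adjusted p = 6.1e-11). CAX7 fell in RAD from 16 to 31 h (-1.25 ± 0.20, adjusted p = 7.9e-08) and rose in MCE from 31 to 38 h without endosperm rupture (1.03 ± 0.20, adjusted p = 1.5e-05).

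**Figure D4:**
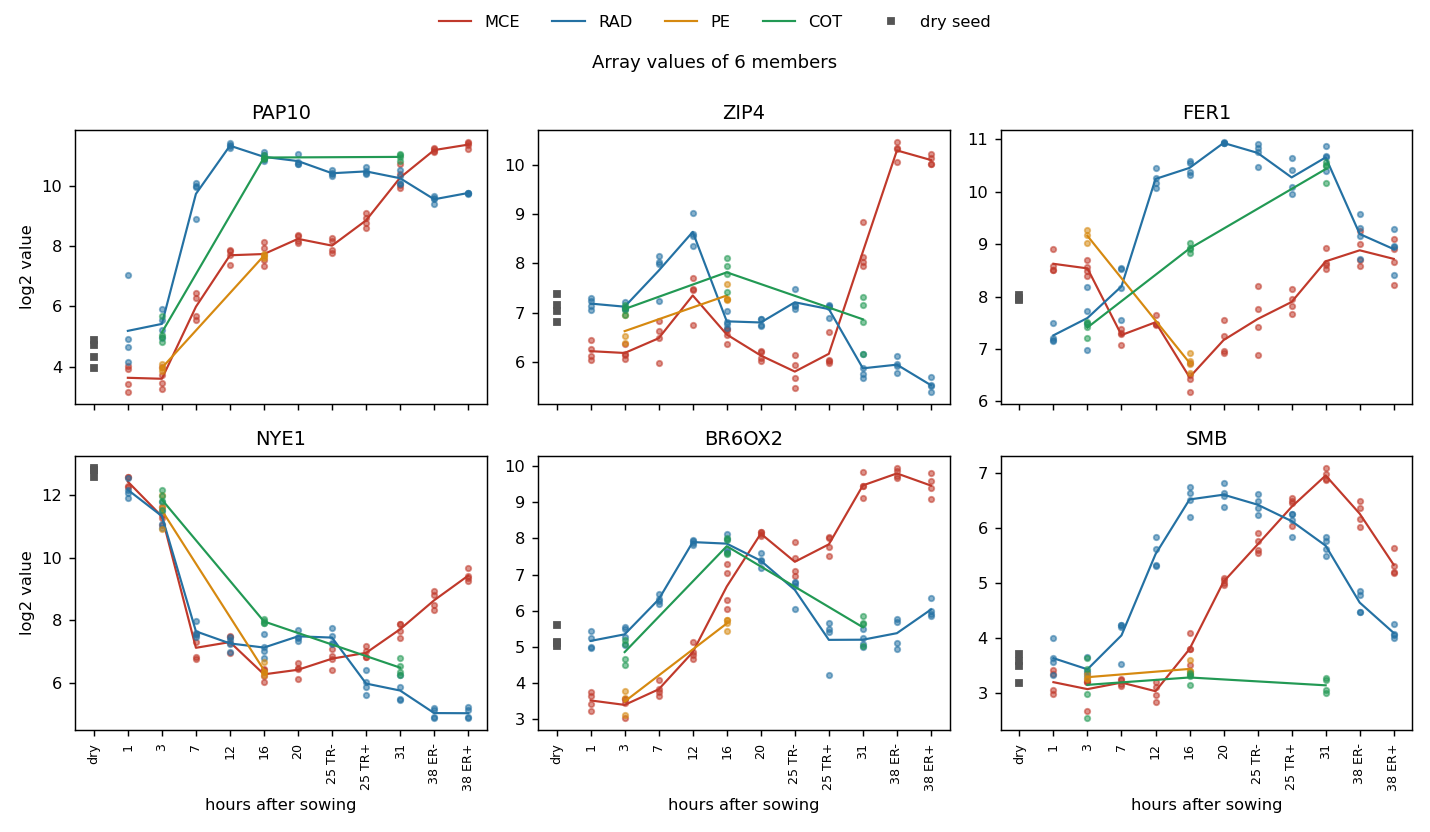
Log2 values of 6 members on every array (points) and group means (lines) by hours after sowing, in MCE (red), RAD (blue), PE (orange), COT (green) and dry seed (grey squares). TR and ER mark seeds without (-) or with (+) testa or endosperm rupture, and for ZIP4 and BR6OX2 the MCE and RAD arrays change order between 12 and 31 h.

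Of 9 members with a role in plastids or tetrapyrroles, the change in MCE exceeded that in RAD for all 9, as it did for 85 of the 100 members. In MCE 4 were called higher and in RAD 4 lower. NYE1, the STAY-GREEN protein that starts chlorophyll breakdown, was high in dry seed (12.81, 12.80, 12.57 and 12.87). Its MCE arrays gave 6.02, 6.41, 6.23 and 6.46 at 16 h, 7.88, 7.90, 7.65 and 7.45 at 31 h, and 8.81, 8.50, 8.33 and 8.94 at 38 h without endosperm rupture. Its RAD arrays gave 7.56, 7.02, 7.15 and 6.81 at 16 h, 6.25, 5.45, 5.86 and 5.48 at 31 h, and 5.15, 4.91, 5.22 and 4.89 at 38 h. All MCE groups were in rising order and all RAD groups in falling order, with no overlap. From 16 to 31 h NYE1 increased in MCE by 1.44 ± 0.18 (adjusted p = 1.3e-11), and it decreased in RAD (-1.37 ± 0.18, adjusted p = 1.7e-10) and in COT (-1.48 ± 0.18, adjusted p = 1.3e-11).

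TIC55-II, which hydroxylates chlorophyll breakdown products, moved alike. The MCE arrays gave 5.54, 5.55, 5.60 and 5.46 at 16 h and 7.33, 7.67, 6.97 and 6.60 at 31 h. Its RAD arrays gave 6.54, 7.07, 6.88 and 6.89 at 16 h and 5.63, 5.76, 5.85 and 5.74 at 31 h. The groups did not overlap, and the change of TIC55-II in MCE exceeded that in RAD by 2.70 ± 0.19 (adjusted p = 7.2e-23). Among 9 other measured genes of chlorophyll breakdown, from a list written after values were seen, 3 were called higher in MCE from 16 to 31 h and none lower. Of these, ACD1, the pheophorbide a oxygenase, rose by 2.68 ± 0.15 (adjusted p = 4.5e-30) and NYC1, a chlorophyll b reductase, by 2.05 ± 0.22 (adjusted p = 4.3e-14).

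Plastid members of photosynthesis and lipids rose in MCE beside the chlorophyll breakdown genes. LHCB4.3, a light-harvesting protein, went from 4.96 ± 0.01 (SD, n = 4) to 6.68 ± 0.51 in MCE between 16 and 31 h (1.72 ± 0.15, SE; adjusted p = 8.4e-18). The heme oxygenase TED4 rose by 1.60 ± 0.14 (adjusted p = 6.8e-18). The fatty acid desaturase FAD5 and PGR5-LIKE A, a protein of cyclic electron flow, rose in MCE only after 31 h, by 1.30 ± 0.13 (adjusted p = 1.1e-14) and 1.13 ± 0.12 (adjusted p = 9.4e-14). The heme-binding protein HBP1 fell in RAD from 16 to 31 h (-1.16 ± 0.13, adjusted p = 2.8e-13), and at 31 h it was higher in COT than in RAD by 3.09 ± 0.13. Of the cotyledon and shoot markers, LHCA1 went from 4.68 to 7.73 and LHCB4.2 from 3.94 to 6.24 in MCE from 16 to 31 h, and from 4.41 to 4.44 and from 3.58 to 3.70 in RAD. In COT at 31 h LHCA1 stood at 5.67 and LHCB4.2 at 5.30. STM, CUC2 and ATML1 stood at 3.18, 3.01 and 8.87 in MCE at 31 h, against 4.89, 3.56 and 10.10 in COT. In RAD the lower sum of that list came with ATML1, at 10.30 and 9.93. Their part in these results was not tested.

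Both members that carry sugars or amino acids fell in RAD. AAP1, an importer of amino acids, gave 10.10, 10.13, 9.89 and 10.09 in RAD at 16 h, 9.03, 8.73, 8.40 and 8.83 at 31 h, and 7.90, 7.40, 7.64 and 7.75 at 38 h without endosperm rupture. The groups fell in order without overlap. In MCE it gave 9.28, 9.34, 8.99 and 8.99 at 16 h and 10.65, 10.33, 10.30 and 9.93 at 31 h. AAP1 increased in MCE (1.15 ± 0.15, adjusted p = 3.6e-11) and decreased in RAD (-1.31 ± 0.15, adjusted p = 6.8e-13).

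SUC2, the sucrose transporter of phloem companion cells, gave 4.83, 5.49, 5.26 and 5.48 in MCE at 16 h and 5.33, 5.71, 5.67 and 5.95 at 31 h, which overlapped. In RAD it gave 8.01, 8.25, 8.01 and 8.06 and then 6.55, 5.62, 6.18 and 6.29, and in COT 9.0, 8.65, 8.56 and 8.72 and then 8.10, 7.97, 8.38 and 8.12. At 16 h the RAD and COT arrays lay above those of MCE, and at 31 h the RAD and MCE arrays overlapped. SUC2 decreased in RAD by 1.92 on the log2 scale (-1.92 ± 0.19, adjusted p = 2.7e-15), and its change in RAD was more negative than in COT (difference 1.33 ± 0.27, adjusted p = 3.9e-05).

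Of 7 members in hormone and kinase signalling, 3 rose in MCE and 2 fell in RAD from 16 to 31 h. BR6OX2, which catalyses the last steps to brassinolide, gave 7.05, 7.29, 6.04 and 6.30 in MCE at 16 h and 9.44, 9.82, 9.46 and 9.12 at 31 h. In RAD it gave 7.63, 8.12, 7.68 and 7.98 at 16 h and 5.0, 5.24, 5.08 and 5.48 at 31 h. The tissues changed order, and in each the groups did not overlap. BR6OX2 increased in MCE by 2.79 ± 0.21 (adjusted p = 1.6e-22) and decreased in RAD (-2.65 ± 0.21, adjusted p = 1.2e-20) and in COT (-2.24 ± 0.21, adjusted p = 8.5e-17).

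RGL1, a DELLA repressor of gibberellin responses, rose in MCE by 1.02 ± 0.18 from 16 to 31 h (adjusted p = 5.9e-07) and fell in RAD from 31 to 38 h without endosperm rupture (-1.17 ± 0.18, adjusted p = 4e-08). DMR6, which inactivates salicylic acid, rose in MCE to 31 h (1.64 ± 0.15, adjusted p = 1.2e-16) and was lower there at 38 h (-1.15 ± 0.15, adjusted p = 1.5e-09). The kinases RPK1, RBK1 and CRCK1 were not called in either tissue from 16 to 31 h. Their MCE differences were 0.14 ± 0.12, 0.15 ± 0.14 and 0.39 ± 0.16. PHI-1, an EXORDIUM-like gene, differed by 0.88 in MCE and -0.56 in RAD.

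All 5 members grouped as other metabolism rose in MCE from 16 to 31 h, and 4 of them fell in COT. AKR4C8, which reduces reactive aldehydes and ketones, gave 6.84, 7.09, 6.81 and 7.13 in MCE at 16 h and 9.41, 9.91, 9.05 and 8.63 at 31 h. The RAD arrays gave 6.58, 6.65, 6.88 and 6.92 and then 4.18, 4.74, 4.25 and 4.53. Nothing overlapped between the times. The changes of AKR4C8 were 2.28 ± 0.17 in MCE (adjusted p = 6.4e-22), -2.33 ± 0.17 in RAD (adjusted p = 7.7e-22) and -1.64 ± 0.17 in COT (adjusted p = 3.9e-14).

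GSTU16, a tau glutathione transferase, gave 6.31, 6.49, 6.34 and 6.61 in MCE at 16 h and 9.19, 9.44, 8.93 and 8.74 at 31 h, against 5.0, 4.79, 5.35 and 4.87 and then 4.2, 4.15, 3.95 and 4.40 in RAD. The RAD arrays at 31 h were near the dim level, and the groups did not overlap. GSTU16 increased in MCE by 2.64 ± 0.14 (adjusted p = 8.1e-31) and decreased in COT (-2.22 ± 0.14, adjusted p = 3.1e-25), and its RAD difference of -0.83 ± 0.14 was under the fold minimum. By symbol it was the 1 member among 35 measured GSTU and GSTF genes.

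SRG1, which had the widest gap between MCE and RAD at 31 h, gave 11.46, 11.56, 11.01 and 11.07 in MCE at 16 h and 12.96, 12.99, 13.09 and 13.23 at 31 h, and 12.13, 12.11, 11.86 and 11.87 in PE at 16 h. The RAD arrays gave 3.82, 4.37, 4.41 and 4.98 at 16 h and 3.36, 3.38, 3.80 and 3.43 at 31 h, at or near the dim level. SRG1 increased in MCE by 1.79 ± 0.16 (adjusted p = 2.6e-18).

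AGT, the serine-glyoxylate aminotransferase of photorespiration, returned late in MCE to its level in dry seed. Its arrays gave 9.37, 9.21, 9.31 and 9.19 in dry seed, 5.01, 4.76, 5.78 and 5.86 in MCE at 16 h, 6.44, 7.55, 6.05 and 5.59 at 31 h, and 8.77, 8.93, 8.87 and 9.25 at 38 h without endosperm rupture. The groups at 16 and 31 h overlapped, and those at 38 h lay above both. The increase of AGT after 31 h was 2.55 ± 0.20 (adjusted p = 1.7e-19), and that before it, 1.05 ± 0.20, lost its call without MCE at 31 h replicate 2 (0.67) or MCE at 16 h replicate 1 (0.94) or 2 (0.86). DELTA-OAT, the ornithine aminotransferase, rose in MCE by 1.13 ± 0.09 from 16 to 31 h (adjusted p = 1e-19).

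Of 6 carbohydrate and cell wall enzymes, 4 rose in MCE and 3 fell in RAD. PGM, a phosphoglycerate/bisphosphoglycerate mutase in the reference table, rose in MCE from 4.03 ± 0.10 (SD, n = 4) to 7.20 ± 0.59 (3.16 ± 0.21, SE; adjusted p = 1.3e-24). UGE3 rose in MCE by 2.24 ± 0.15 (adjusted p = 1.1e-24) and fell in RAD (-1.45 ± 0.15, adjusted p = 3.9e-14). The beta-glucosidase BGLU10 rose in MCE by 1.47 ± 0.19 (adjusted p = 5.2e-11) and fell in RAD (-1.07 ± 0.19, adjusted p = 8.8e-07). The carboxypeptidase-like scpl44 rose in MCE (2.71 ± 0.32, adjusted p = 3.8e-12) and in COT (2.80 ± 0.32, adjusted p = 2.7e-12), and its RAD difference was 0.16 ± 0.32.

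Of 6 lipid enzymes, 4 rose in MCE and 4 fell in COT. GPAT1, a glycerol-3-phosphate acyltransferase, went from 3.92 ± 0.26 (SD, n = 4) to 7.06 ± 0.27 in MCE (3.14 ± 0.25, SE; adjusted p = 9.4e-21) and fell in COT (-2.07 ± 0.25, adjusted p = 9.5e-12). CYP96A11 and CYP96A12, cytochromes P450 of a family that includes a wax-forming hydroxylase, are neighbours on chromosome 4. By symbol they were 2 of 194 measured CYP genes, and BR6OX2 is a further member of the P450 class under another name. They rose in MCE by 1.22 ± 0.17 and 1.15 ± 0.19 and fell in RAD (-1.31 ± 0.17 and -1.36 ± 0.19). Probes of such close copies can cross-hybridise, so that their values may not be separate. DPL1, a sphingosine phosphate lyase, fell in COT (-1.48 ± 0.11, adjusted p = 1.2e-21).

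Of 8 transcription and RNA factors, 4 rose in MCE from 16 to 31 h. For all 8 the change in MCE exceeded that in RAD, as it did for 85 of the 100 members. SMB, a NAC factor of the root cap, gave 3.79, 3.80, 3.50 and 4.09 in MCE at 16 h and 6.86, 6.97, 7.08 and 6.88 at 31 h. In RAD it gave 6.74, 6.62, 6.20 and 6.50 at 16 h and 5.61, 5.77, 5.82 and 5.49 at 31 h, so that the tissues changed order. In COT at 16 and 31 h it stayed between 3.00 and 3.35. SMB increased in MCE by 3.15 ± 0.15 (adjusted p = 1.5e-35), and the difference in RAD, -0.84 ± 0.15, was under the fold minimum. None of the 6 other measured root markers was called higher in MCE from 16 to 31 h. In MCE at 31 h PLT1 stood at 3.23 ± 0.16, PLT2 at 3.21 ± 0.13 and MYB66 (WER) at 3.28 ± 0.27, against 5.56 ± 0.20, 5.93 ± 0.31 and 9.01 ± 0.10 in RAD. The other 3 were above 4.03 in MCE, with SCR at 7.97 ± 0.18, EIR1 (PIN2) at 5.01 ± 0.04 and SHR at 4.41 ± 0.25, against 8.41 ± 0.15, 10.09 ± 0.11 and 6.66 ± 0.26 in RAD.

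ML2, an RNA-binding protein, fell in MCE from 3 to 16 h (-4.04 ± 0.17, adjusted p = 6e-40) and rose again by 2.25 ± 0.17 to 31 h (adjusted p = 1.9e-22). WRKY2, a WRKY factor, rose in MCE by 1.34 ± 0.16 (adjusted p = 4.5e-12) and fell in COT (-1.54 ± 0.16, adjusted p = 3.4e-14). Rap2.6L, an ethylene response factor family member, fell in RAD (-1.84 ± 0.16, adjusted p = 3e-18) and in COT (-3.59 ± 0.16, adjusted p = 1.1e-36), with a difference of 0.21 ± 0.16 in MCE. MYB109, a MYB factor, differed by 0.93 ± 0.14 in MCE and -0.75 ± 0.14 in RAD, both under the fold minimum. The change in MCE less that in RAD was called for it (1.67 ± 0.20, adjusted p = 7.1e-12).

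Of 5 members with roles in the cytoskeleton and in trafficking, 3 fell in RAD and 1 rose in MCE. The alpha-tubulin TUA1 rose in MCE by 1.28 ± 0.17 (adjusted p = 9.8e-11). NET3A, an actin-binding protein, fell in RAD (-1.19 ± 0.15, adjusted p = 4.8e-11), as did the MATE transporter ADS1 of locus AT4G29140 (-1.08 ± 0.15, adjusted p = 1.6e-09). The autophagy factor ATG11 (AT4G30790) differed by 0.78 ± 0.14 in MCE and -0.68 ± 0.14 in RAD, both under the fold minimum.

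For 38 members no role is given here, and 11 of them rose in MCE and 13 fell in RAD from 16 to 31 h. AT5G01210, first by score, gave 4.94, 5.10, 4.43 and 4.82 in MCE at 16 h and 7.73, 7.94, 7.43 and 6.85 at 31 h. In RAD it gave 8.31, 7.75, 7.87 and 7.93 and then 4.40, 4.51, 4.65 and 4.37. The tissues exchanged levels with no overlap. The changes of AT5G01210 were 2.67 ± 0.22 in MCE (adjusted p = 5e-20), -3.48 ± 0.22 in RAD (adjusted p = 2.4e-26) and -1.78 ± 0.22 in COT (adjusted p = 1.7e-11).

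AT3G11930 had the largest rise of any member in MCE from 16 to 31 h. Its MCE arrays gave 8.05, 8.01, 8.66 and 8.86 at 16 h and 12.42, 12.82, 12.48 and 12.34 at 31 h, the level of dry seed (12.47, 12.36, 12.57 and 12.66). In RAD they gave 6.81, 6.47, 6.51 and 5.96 and then 5.85, 4.51, 5.13 and 5.04. The groups did not overlap. AT3G11930 increased in MCE by 4.12 ± 0.24 (adjusted p = 2.1e-29).

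AT5G45650 was the member for which the tissues differed least in their change from 16 to 31 h among the 5 with the highest score. It gave 11.78, 11.63, 11.31 and 11.12 in MCE at 16 h and 10.91, 10.55, 10.43 and 10.71 at 31 h, and 11.47, 11.32, 11.32 and 11.32 and then 9.94, 9.47, 9.53 and 9.80 in RAD. Both tissues were lower at 31 h. AT5G45650 fell in RAD (-1.67 ± 0.34, adjusted p = 1.6e-05), differed in MCE by -0.81 ± 0.34, and the difference between these changes, 0.86 ± 0.48, did not pass (adjusted p = 0.16).

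From 31 h to 38 h without endosperm rupture, more members were called higher in MCE than in RAD. In MCE 25 members were called higher (3.67% of all loci) and 3 lower (2.14% of all loci), with a median of 0.65. In RAD 3 were called higher (3.87% of all loci) and 10 lower (3.16% of all loci), with a median of -0.25. The share of called loci that were higher in RAD over this interval was 55.01% as deposited and 68.8% after an added scaling of the arrays. In MCE the largest increases were those of AGT (2.55 ± 0.20), ZIP4 (2.05 ± 0.17), AT2G20920 (1.80 ± 0.11) and PLDP2 (1.75 ± 0.19), and the decreases those of AT4G26790 (-1.34 ± 0.23), DMR6 (-1.15 ± 0.15) and scpl44 (-1.08 ± 0.32). In RAD the largest decreases were those of ADS1 of locus AT1G06080 (-2.58 ± 0.20), scpl44 (-1.95 ± 0.32) and AT5G45650 (-1.87 ± 0.34), and the 3 increases those of SPX1 (1.88 ± 0.28), AT3G11930 (1.66 ± 0.24) and AT5G05250 (1.07 ± 0.22).

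Endosperm rupture at 38 h is described without a test, because the ruptured groups chose the members. In MCE 72 members were higher in ruptured than in unruptured seeds, with a median difference of 0.19, against 47.1% of all loci and a median of -0.01. PLDP2 (1.77), RBK1 (1.39) and CRCK1 (1.10) differed upwards by 1 or more. The lowest difference was that of AT4G26790 (-1.14). In RAD 63 members were lower in ruptured seeds, with a median of -0.06, close to the 60.4% and -0.04 over all loci. The differences lay between -1.88 for AT5G45650 and 2.29 for Rap2.6L. With the unruptured groups in place of the ruptured ones, the rule would have chosen 65 of the same 100 loci.

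In cotyledons, an embryo tissue like RAD, the set fell less evenly. From 16 to 31 h 28 members were called lower in COT (4.23% of all loci) and 5 higher (6.99% of all loci), with a median of -0.56. Of these 28, 15 were also called lower in RAD, which is 53.6% of the COT calls and 45.5% of the RAD calls. No member lower in RAD was called higher in COT. The share over all loci is not given for this overlap and the members were chosen for a fall in RAD, so nothing is read from it. The change in MCE exceeded that in COT for 64 members (10.1% of all loci) and was below it for 2, SPX1 and AT5G45650 (12.1% of all loci), or for 4 without MCE at 16 h replicate 3. The change in COT exceeded that in RAD for 20 members (4.53% of all loci) and was below it for 8 (4.33% of all loci). These comparisons share the MCE, RAD and COT arrays of both times. Members were chosen for a rise in MCE and a fall in RAD. An excess of changes in MCE above those in COT, and in COT above those in RAD, can thus follow from the choice.

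The members that set COT apart from RAD ran both ways. The desaturase ADS1 of locus AT1G06080 rose in COT by 2.02 ± 0.20 (adjusted p = 2e-15) and differed by -0.72 ± 0.20 in RAD, a difference of changes of 2.74 ± 0.28. For scpl44 it was 2.64 ± 0.46 and for AT5G45650 2.63 ± 0.48. In the other direction it was -1.76 ± 0.39 for SPX1, -1.75 ± 0.22 for Rap2.6L and -1.39 ± 0.20 for GSTU16. At 31 h 35 members were higher in COT than in RAD (8.30% of all loci) and 6 lower (7.14% of all loci). The choice of members for a fall in RAD can by itself give such an excess. LHCB4.3 (2.85 ± 0.15) and UGE3 (2.51 ± 0.15) were among those higher in COT. SMB (-2.54 ± 0.15) and COBL2 (-1.26 ± 0.15), a COBRA-like wall protein, were among those lower.

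In the endosperm samples at 16 h, the counts of members that differed between PE and MCE were near the shares over all loci and are no result about the members. AT4G26790 alone was called higher in PE than in MCE (1.24 ± 0.23, adjusted p = 2.9e-05; 0.272% of all loci), and AHL20, an AT-hook protein (-1.03 ± 0.14), and BR6OX2 (-1.02 ± 0.21) were called lower (0.840% of all loci). The PE and MCE arrays of the same replicate number deviated together at 16 h, and with the number as a block the counts were the same. All 3 calls lie near the fold minimum. Without MCE at 16 h replicate 3 or 4 no member was called higher, and without replicate 1 or 2 none was called lower. The call of BR6OX2 was lost without MCE at 16 h replicate 1 (-0.89) or 2 (-0.82) or PE at 16 h replicate 3 (-0.95). PE was not sampled after 16 h, so whether the late rise took place there was not measured.

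Before 16 h the members had no common course. From 3 to 16 h in MCE 28 were called higher (15.8% of all loci) and 36 lower (13.7% of all loci), and 36 were not called. The counts were 27 and 39 in RAD (18.17% and 13.8% of all loci), 29 and 32 in PE (16.5% and 13.1% of all loci), and 31 and 29 in COT (17.8% and 13.1% of all loci). The added scaling moved the median of all loci from 3 to 16 h by -0.20 in COT, -0.19 in PE, -0.12 in MCE and -0.11 in RAD, and turned the sign of the members' median in COT from 0.05 to -0.15.

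The 36 members that fell in MCE are described by their levels only, since the rule chose all members for a late rise there and a late fall in RAD. Their median level was 8.57 in dry seed, 8.56 in MCE at 3 h, 6.45 at 16 h, 7.46 at 31 h and 8.45 at 38 h without endosperm rupture. In RAD it was 8.47, 6.54, 5.59 and 5.05 at the same times after sowing. In this group NYE1 fell in MCE by 5.05 on the log2 scale (-5.05 ± 0.18, adjusted p = 6.7e-45), AT3G26580 by 4.86 (-4.86 ± 0.15) and AGT by 4.03 (-4.03 ± 0.20). Of the 36, 32 were also called lower in PE, 29 in RAD and 23 in COT. Over all loci, 2911 were called lower in MCE from 3 to 16 h and 1812 in all 4 parts. A fall shared between parts was thus common and is no trait of this group.

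The 28 members that rose in MCE started low. Their median was 5.19 in dry seed, 4.61 in MCE at 3 h, 7.59 at 16 h, 9.01 at 31 h and 8.88 at 38 h without endosperm rupture, and 5.39, 7.83, 6.63 and 6.0 in RAD. AT5G45650 rose by 7.96 ± 0.34 in MCE and 7.72 ± 0.34 in RAD, G3Pp1 by 7.13 ± 0.35 and 4.74 ± 0.35, and scpl44 by 6.79 ± 0.32 and 7.47 ± 0.32. In all, 15 members rose from 3 to 16 h in all 4 seed parts, among them PAP17, PAP10, G3Pp1, IRT3, BR6OX2, SUC2, XYL1 and RGL1 (9.91% of all loci), and 20 members fell in all 4 (8.50% of all loci). The levels at 16 h both define these groups and enter the change to 31 h, so nothing is read from that change within a group.

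**Figure D5:**
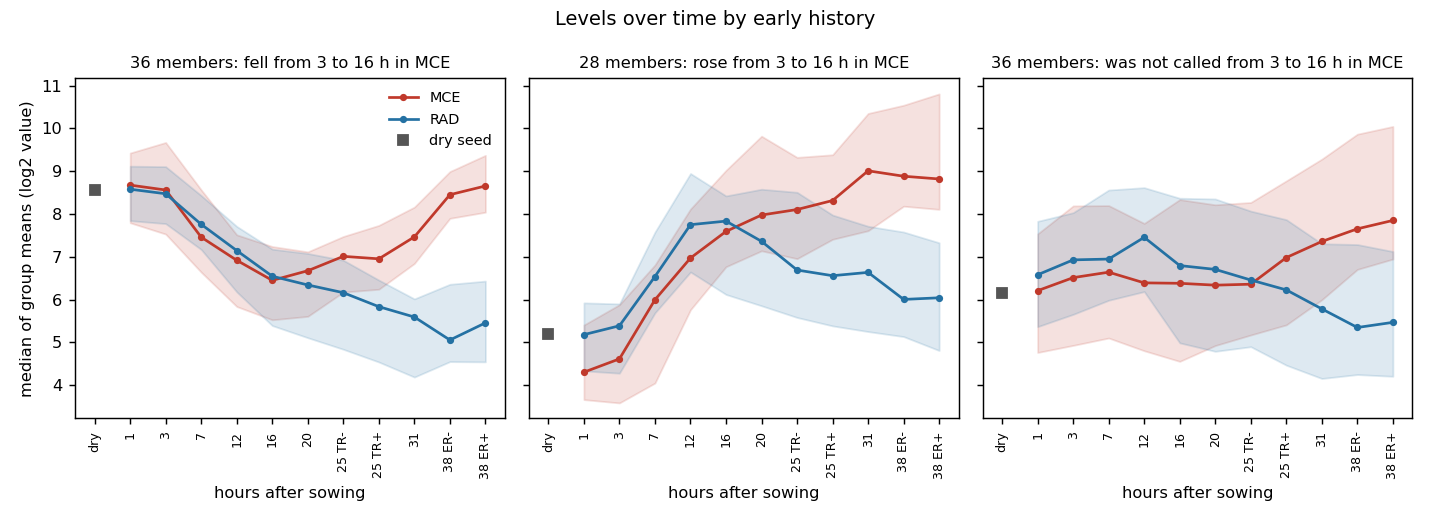
Median over members of the group mean (log2 value, lines) and the range from the 25th to the 75th percentile over members (bands) in MCE (red), RAD (blue) and dry seed (square), by hours after sowing, for the 36 members that fell, the 28 that rose and the 36 that were not called from 3 to 16 h in MCE. In all 3 groups the MCE line lies above the RAD line at 31 h, which can follow from the choice of members.

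In the first hour most members were not called, though the shares called were above those of all loci, most so for falls in MCE. MCE at 1 h was called higher than whole dry seed for 6 members (1.81% of all loci) and lower for 12 (1.54% of all loci), and RAD for 4 and 5 (1.54% and 1.67% of all loci). Without RAD at 1 h replicate 1 or 3, 9 or 7 members were called higher there. Dry seed was measured whole, so a difference in tissue and a change with time cannot be told apart here. AT5G17350 was higher in both (3.13 ± 0.34 in MCE, 3.43 ± 0.34 in RAD), CAX7 was lower in MCE (-2.75 ± 0.20) and SRG1 lower in RAD (-2.32 ± 0.16).

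Testa rupture at 25 h set few members apart, though in RAD the share called lower was above that of all loci. Members were chosen for a fall in RAD and a rise in MCE over a span that includes 25 h. An excess of falls in RAD or of rises in MCE with rupture can thus follow from the choice. In MCE 5 were called higher in seeds with a ruptured testa (2.83% of all loci) and 2 lower (0.540% of all loci), and in RAD 1 higher (1.44% of all loci) and 5 lower (0.577% of all loci). PHI-1 was the 1 member higher in both, by 3.11 ± 0.40 in MCE (adjusted p = 8.3e-10) and 1.52 ± 0.40 in RAD (adjusted p = 0.005). COR413-PM2, a cold-regulated membrane protein, was higher in MCE by 1.38 ± 0.13 (adjusted p = 4.4e-16). In RAD the decreases were led by AT5G01210 (-1.71 ± 0.22), NYE1 (-1.47 ± 0.18), AT3G11930 (-1.44 ± 0.24) and BR6OX2 (-1.38 ± 0.21). The 2 decreases in MCE, SPX1 (-1.40 ± 0.28) and PAP17 (-1.09 ± 0.30), lost their calls without 1 array redone for quality control, replicate 1 of MCE with an intact testa at 25 h (-0.99 and -0.85). Without replicate 3 of that group, 9 members were called higher in MCE.

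The gene lists drawn up from the tissue and the stage held few members. Of 210 measured genes on 16 lists, 4 were members (1.905%, against 0.469% of all loci): SMB, PHI-1, SUC2 and AAP1. Lists of senescence and cell death, autophagy, storage oil breakdown, amino acid breakdown, abscisic acid response, heat shock, jasmonate, ethylene, defence and maturation held none. From 16 to 31 h in MCE, 6 of 14 autophagy genes were called higher and none lower, where 10.6% and 11.7% of all loci were. For oil breakdown 8 of 17 were called higher and for senescence and cell death 7 of 17, again with none lower. In RAD 5 of the senescence and cell death genes were called higher and 1 lower (7.16% and 4.34% of all loci). No autophagy or oil breakdown gene was called higher in RAD, and 2 autophagy genes were called lower. Of 19 maturation proteins 18 were called lower in MCE and 16 in RAD (11.7% and 4.34% of all loci). For the autophagy genes the change in MCE exceeded that in RAD in 10 of 14, with a median of 1.39, against 8.88% of all loci. It did so in 2 of 17 genes of oil breakdown and 3 of 17 of senescence and cell death.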

How the data were processed

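RNA from dissected seed parts was hybridised to Affymetrix arrays after 3' IVT labelling, per the labels' protocols. The deposited values are log2 expression levels, made with RMA in the affy package per the submitters' processing notes; no source used here gives versions, genome build or probe definition. Of 21313 loci, 21205 were found in the RefSeq table (TAIR10.1) and 108 were not. Promoters and other sequences were not analysed here.

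One mean per group was fitted for 28 groups with limma 3.58.1 (R 4.3.3), with 83 residual degrees of freedom and Benjamini-Hochberg adjustment over all loci. The fit was tested on simulated data, where 98% of 100 loci changed by 1.5 were recovered for the change in MCE minus that in RAD. Comparisons that use the 4 groups of the selection rule were not tested. The number of arrays limits the precision. In the labels, 6 arrays were redone for quality control and 3 have differing labels; alternatives left these out, and others changed the filter, normalization, scaling, prior, array weights, samples in the fit, fold minimum and block. Of 16 comparisons of 2 groups, only PE minus MCE at 16 h had every correlation of same-numbered arrays above 0.1 (0.265 to 0.425), a hint from the data and not the design.

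The members and lists were chosen with earlier results of these data known. Values were named for the 15 highest scores, the 4 largest called changes each way per comparison, list and family members, and 3 loci just outside. Other genes with values, among them IRT3, IREG2, ZIP5, PFA-DSP4, TED4, FAD5, PGR5-LIKE A, RGL1, DELTA-OAT, RPK1, RBK1, CRCK1, DPL1, TUA1, BOP2 and ATG11, were chosen after their values were seen.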

Additional observations from a re-analysis of the deposited data

Results flagged for a closer look

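Single arrays stood apart in 14 of 264 groups of 4 arrays examined for the genes shown array by array, where chance flags about 1 in 20. In MCE these were PAP17 at 31 h replicate 2 (11.2, others 10.4), G3Pp1 (12.0, others 11.7) and IRT3 (12.4, others 12.0 to 12.1) at 38 h with endosperm rupture replicate 1, SRG1 at that stage in replicate 3 (12.8, others 12.6), FER1 at 12 h replicate 2 (7.64, others 7.45 to 7.47) and AT3G11930 at 38 h without endosperm rupture replicate 1 (13.8, others 13.6). In RAD they were G3Pp1 at 16 h replicate 2 (8.55, others 8.75 to 8.76), AT5G45650 at 16 h replicate 1 (11.47, others 11.32), SRG1 at 31 h replicate 3 (3.80, others 3.36 to 3.43) and, at 38 h without endosperm rupture, IRT3 in replicate 2 (8.91, others 8.48 to 8.54) and, in replicate 1, AT5G01210 (5.01, others 4.21 to 4.28) and AT3G11930 (8.51, others 6.06 to 6.45). In COT they were TIC55-II at 31 h replicate 1 (7.99, others 7.55 to 7.58) and AT5G20790 at 16 h replicate 3 (4.53, others 5.16 to 5.28).

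The change from 16 to 31 h differed between seed parts, by limma's test of the difference, for 86 members between MCE and RAD, 66 between MCE and COT and 28 between COT and RAD. Between MCE and RAD the differences (MCE less RAD, log2) were 1.16 for PAP17, 3.24 for PAP10, -3.52 for SPX1, 2.63 for ZIP4, 3.23 for IRT3, 2.01 for FER1, 2.81 for NYE1, 2.70 for TIC55-II, 4.61 for AKR4C8 and 3.46 for GSTU16. They were 1.52 for AGT, 2.69 for SRG1, 5.45 for BR6OX2, 2.46 for AAP1, 2.32 for SUC2, 3.99 for SMB, 6.15 for AT5G01210, 1.49 for AT5G20790 and 5.42 for AT3G11930. Between COT and RAD (COT less RAD) they were -1.76 for SPX1, 1.31 for FER1, -1.39 for GSTU16, -1.32 for AGT, -1.38 for SRG1, 1.33 for SUC2, 1.7 for AT5G01210, 2.63 for AT5G45650 and -1.36 for AT3G11930.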

How the results depend on the processing

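With no fold minimum, members called higher and lower numbered 69 and 4 in MCE and 9 and 57 in COT from 16 to 31 h, and 88 were lower in RAD. After 31 h they numbered 58 and 8 in MCE and 14 and 29 in RAD, for testa rupture 21 and 5 in MCE and 4 and 26 in RAD, for COT minus RAD at 31 h 59 and 12, for PE minus MCE 10 and 5, and at 1 h against dry seed 14 and 37 in MCE and 20 and 19 in RAD. The change in MCE was then below that in RAD for 2 and below that in COT for 5, the change in COT exceeded that in RAD for 37, and 10 were lower in MCE than in RAD at 31 h. Members lower with testa rupture in MCE numbered 1 with array weights and 0 without the redone arrays. For PE minus MCE none was lower with array weights or without the arrays with differing labels, and none was higher with only the groups of the comparison. Leaving out 1 array at a time gave 40 to 51 higher in MCE and 33 to 41 lower in RAD from 16 to 31 h, 82 to 87 with a larger change in MCE than in RAD, 2 to 4 with a smaller change in MCE than in COT, 5 to 9 higher and 0 to 2 lower with testa rupture in MCE, 0 to 1 higher and 0 to 2 lower in PE than in MCE, and 4 to 9 higher in RAD at 1 h. The rule chose 65 of the same 100 loci from the unruptured groups at 38 h, 70 with the added scaling, and 91 to 98 with 1 array left out (91 without RAD at 12 h replicate 1 or 3). The replicate block gave 43 higher in MCE, 33 lower in RAD and 85 for their difference; where the numbers do not pair the arrays it is no check. Of 4185 repeats of 213 called gene results, 49 lost the call and 0 reversed; the cause was not tested. The added scaling moved the median of all loci by 0.14 in MCE from 16 to 31 h and by 0.12 in RAD from 31 to 38 h. Levels under 4.03 limit falls in RAD.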
